A study of Mus musculus with 12 samples.

Results

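Stable lines of mouse embryonic stem cells carrying a short hairpin against Suv39h1 (shSuv39h1) were compared directly with lines carrying a hairpin against Suv39h2 (shSuv39h2). The comparison took the 4 libraries titled for these hairpins, 2 for each, out of 12 in the series. Its members are all genes that reached 1 FPKM in at least 2 of the 4 libraries, which were 12569 of 23354 genes shared by all files. FPKM scales the fragments of a gene by transcript length and library size, so it is a level per length.

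All cells were of J1, a male embryonic stem cell line, and were grown on inactivated embryonic fibroblasts in medium with serum and leukemia inhibitory factor. The shSuv39h1 and shSuv39h2 libraries are set beside 2 libraries of the hairpin shNC, read here as the control hairpin. The remaining 6 libraries overexpressed H3.1WT, H3.1K9M or H3.1K36M and entered only the estimate of the spread. The labels give neither the hairpin sequences nor whether a line came from 1 clone, and do not state if the 2 replicates of a hairpin came from separate cultures. The p-values therefore rest on a spread between libraries that may be technical. Any difference between clones that is unrelated to the hairpin cannot be told apart from the effect of the hairpin.

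SUV39H1 and SUV39H2 are a pair of related methyltransferases that place trimethylation on lysine 9 of histone H3. The mark recruits HP1 proteins and is known for constitutive heterochromatin, above all at pericentromeric satellite repeats. In mouse embryonic stem cells both enzymes are present, and germline genes, X-linked testis genes and genes of the 2-cell embryo are held at low levels by several silencing layers, DNA methylation among them.

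The genes that differed most between the hairpins included X-linked testis genes, 2-cell genes and germline genes, which were higher in shSuv39h1. Among called list members, 10 of 12 in the 2-cell list and 5 of 11 in the X-linked list reached 1 FPKM in shSuv39h1 only. Given the rule for members, those genes had to differ. The neuronal genes Pou4f2, Stmn3 and Cdk5r2 were lower. A list of neural genes did not move that way as a whole. It held 1 higher call, Tubb3, and 1 lower call, Stmn3, among 21 tested, with a median of -0.03. For 6 genes of these kinds the 250 bases before the annotated start are printed, with CpG dinucleotides in capitals. They are the X-linked genes Fmr1nb and Xlr3a, the 2-cell gene Zscan4f, the germline genes Cyct and Tuba3a, and Stmn3, a gene that was lower. Pnma5, the called X-linked gene with the largest difference, is not among them, since its window lies inside the annotated gene. The sequences are from RefSeq on GRCm38.p6, 5′ to 3′ on the strand of the gene.
Fmr1nb: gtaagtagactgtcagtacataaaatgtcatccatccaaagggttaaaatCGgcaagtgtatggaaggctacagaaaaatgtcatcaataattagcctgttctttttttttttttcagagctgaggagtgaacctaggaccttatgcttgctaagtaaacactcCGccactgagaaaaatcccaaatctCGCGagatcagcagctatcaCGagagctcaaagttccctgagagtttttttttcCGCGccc
Xlr3a: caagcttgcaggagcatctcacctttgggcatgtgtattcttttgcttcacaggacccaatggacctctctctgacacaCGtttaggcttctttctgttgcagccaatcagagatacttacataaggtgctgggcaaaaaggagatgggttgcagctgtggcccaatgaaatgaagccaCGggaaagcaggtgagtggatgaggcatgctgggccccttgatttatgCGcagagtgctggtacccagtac
Zscan4f: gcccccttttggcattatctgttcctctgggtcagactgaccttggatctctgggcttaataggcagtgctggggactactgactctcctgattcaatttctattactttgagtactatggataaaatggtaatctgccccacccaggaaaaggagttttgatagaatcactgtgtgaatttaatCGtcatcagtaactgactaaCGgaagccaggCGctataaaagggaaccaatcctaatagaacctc
Cyct: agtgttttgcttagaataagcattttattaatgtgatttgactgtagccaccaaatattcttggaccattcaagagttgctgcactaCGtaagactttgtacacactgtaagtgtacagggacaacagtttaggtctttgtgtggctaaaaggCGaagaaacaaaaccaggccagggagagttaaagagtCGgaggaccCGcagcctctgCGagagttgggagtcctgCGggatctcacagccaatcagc
Tuba3a: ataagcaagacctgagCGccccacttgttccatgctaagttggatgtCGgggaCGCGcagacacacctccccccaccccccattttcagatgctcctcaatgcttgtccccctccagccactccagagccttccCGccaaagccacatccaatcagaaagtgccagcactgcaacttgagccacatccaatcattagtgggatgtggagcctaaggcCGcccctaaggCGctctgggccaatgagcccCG
Stmn3: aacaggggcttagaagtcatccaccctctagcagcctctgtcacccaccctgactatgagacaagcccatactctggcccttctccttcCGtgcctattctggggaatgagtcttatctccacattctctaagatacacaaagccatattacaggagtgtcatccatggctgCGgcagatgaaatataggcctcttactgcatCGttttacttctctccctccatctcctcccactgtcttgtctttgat
These windows lie at chrX:68761589-68761838 (plus strand, Fmr1nb), chrX:73097096-73097345 (minus strand, Xlr3a), chr7:11397665-11397914 (plus strand, Zscan4f), chr2:76360454-76360703 (minus strand, Cyct), chr6:125286082-125286331 (minus strand, Tuba3a) and chr2:181314501-181314750 (minus strand, Stmn3). The window of Fmr1nb holds 7 CpG, that of Xlr3a 3, that of Zscan4f 3, that of Cyct 6, that of Tuba3a 8 and that of Stmn3 3. All 6 are below the median of 16 CpG over the 9987 tested genes with a listed promoter. Of 5 further windows read, that of Pnma5 holds 0 CpG, that of Usp26 5, that of Gpat2 11 and that of Enpp3 5, while that of Pou4f2, the called gene with the most negative difference, holds 17 and lies above the median.

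The libraries were close in depth and in the summed level of stem cell markers. Between 12126 and 12518 genes reached 1 FPKM in each of the 4 libraries. From the steps between low values, 1 FPKM of a 2 kb transcript stood for about 46.2 and 44.6 fragments in shSuv39h1 and 50.4 and 54.3 in shSuv39h2. These are approximate figures, a little higher in shSuv39h2. The 8 stem cell markers, which include Pou5f1, Nanog and Sox2, summed to 4623 and 5009 FPKM in shSuv39h1, 4958 and 5161 FPKM in shSuv39h2 and 4684 and 4337 FPKM in shNC, with none at 0. Dppa5a made up most of the sum, at 2495 of 4623 FPKM in shSuv39h1 replicate 1. Single markers went both ways in shSuv39h1 minus shSuv39h2, with log2 differences of -0.28 for Pou5f1, 0.28 for Nanog and 0.30 for Zfp42. None of the markers passed the test. The log2 values of both shSuv39h1 libraries differed with an SD of 0.19 over the genes, and those of both shSuv39h2 libraries with an SD of 0.22. Fibroblast transcripts were present in all libraries, and a list of 40 feeder and matrix genes summed to 2569 and 1688 FPKM in shSuv39h1, 3305 and 2662 FPKM in shSuv39h2 and 2425 and 3192 FPKM in shNC. Of its 39 tested genes none passed the test, 3 lay above 0, and the median log2 difference of shSuv39h1 minus shSuv39h2 was -0.51. That median depended on the library, at -0.23 without shSuv39h1 replicate 2 and -0.72 without shSuv39h1 replicate 1. Its SD over pairs of libraries was 0.32. In bulk RNA, fewer cells of a type and less RNA per cell cannot be told apart.

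Each target was lower under its own hairpin than under the other. Suv39h1 (chromosome X, 8061171 to 8074760) had 4.91 and 5.1 FPKM in shSuv39h1, 10.5 and 9.74 FPKM in shSuv39h2, and 8.58 and 7.52 FPKM in shNC. The shSuv39h1 libraries were the lowest of the 6, and the groups did not overlap. The log2 difference of shSuv39h1 minus shSuv39h2, on the log2(FPKM + 1) scale used throughout, was -0.89 (SE 0.105, limma adjusted p = 0.00262), and the mean FPKM in shSuv39h1 was 0.495 times that in shSuv39h2. Against shNC neither side passed the test: Suv39h1 stood at -0.59 in shSuv39h1 (limma adjusted p = 0.0887) and at 0.30 in shSuv39h2 (limma adjusted p = 0.105). Suv39h2 (chromosome 2, 3455815 to 3474986) had 5.18 and 4.86 FPKM in shSuv39h1, 1.61 and 1.76 FPKM in shSuv39h2, and 4.8 and 4.78 FPKM in shNC. Here the shSuv39h1 libraries lay with shNC, and both shSuv39h2 libraries lay below all others. The log2 difference was 1.17 (SE 0.0938, limma adjusted p = 0.000428), a ratio of mean FPKM of 2.98. Both targets kept their call without any single library.

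**Figure D1:**
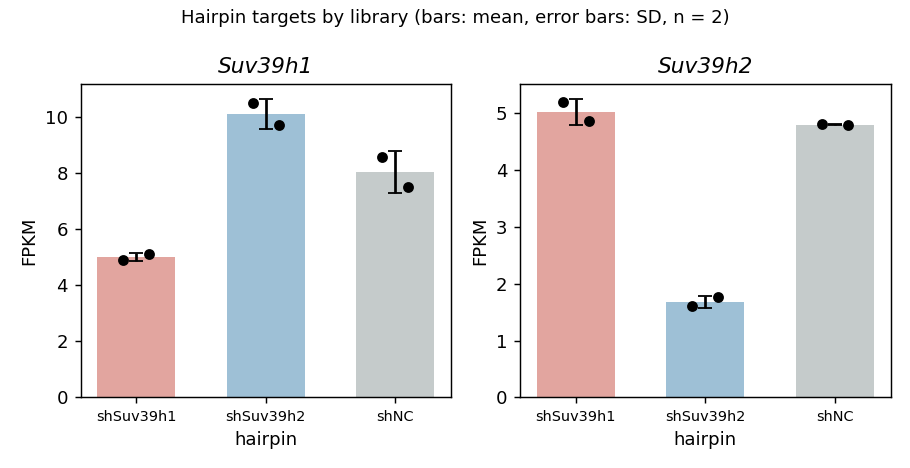
FPKM of Suv39h1 (left) and Suv39h2 (right) in shSuv39h1, shSuv39h2 and shNC libraries, with points for libraries and bars for the mean ± SD (n = 2). Suv39h1 is lowest in shSuv39h1 at 4.91 and 5.10 FPKM, and Suv39h2 is lowest in shSuv39h2 at 1.61 and 1.76 FPKM.

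The knockdowns differed in many transcripts. Of 12569 genes, 836 were called at a limma adjusted p below 0.05 (Benjamini-Hochberg), which is 6.65%. Of these, 572 were higher in shSuv39h1 (4.55%) and 264 were lower (2.1%), and 2701 genes had an unadjusted p below 0.05. The libraries of the 2 groups did not overlap in any called gene, and in 58.7% of all tested genes. Most differences were small: 74 called genes reached an absolute log2 difference of 1, of which 68 were higher and 6 lower. The 95% interval lay wholly between -1 and 1 for 11886 genes (94.6%), 606 of the called genes among them, and between -0.5 and 0.5 for 7560 genes (60.1%). The number called rested on having both libraries of a group: it was 86 without shSuv39h1 replicate 1, 84 without shSuv39h1 replicate 2, 122 without shSuv39h2 replicate 1 and 219 without shSuv39h2 replicate 2. In all 4 of these fits 57 genes were called, 45 higher and 12 lower.

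Low genes need care, because a gene that passed the filter through 1 group had to differ. Of the members, 11785 reached 1 FPKM in all 4 libraries, and these held 457 of the higher and 256 of the lower calls. Another 249 passed only through shSuv39h1, with 99 higher calls, and 50 passed only through shSuv39h2, with 7 lower calls.

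**Figure D2:**
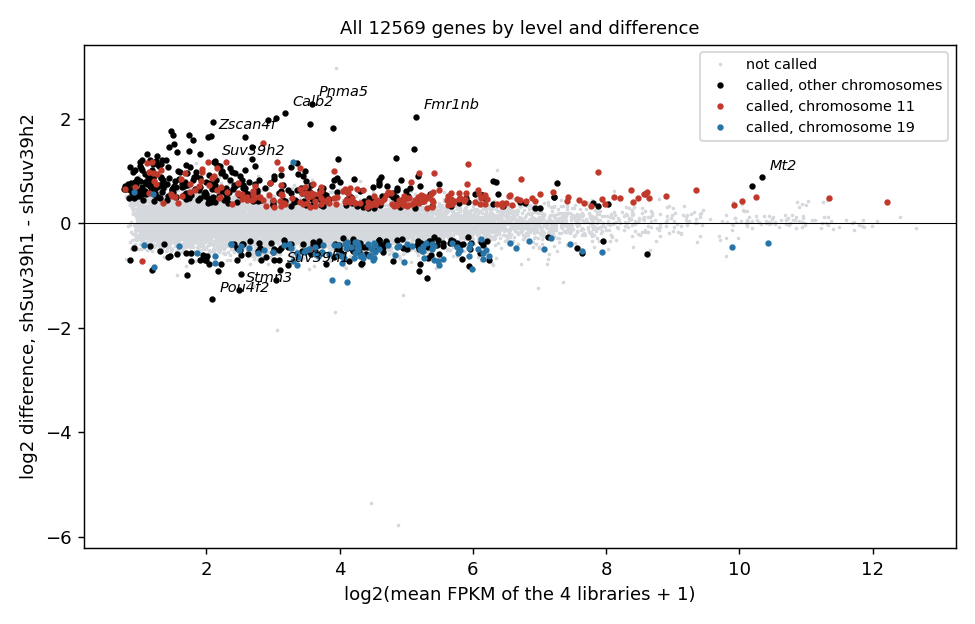
Each point is a gene, with log2(mean FPKM of the 4 libraries + 1) on the x axis and the log2 difference shSuv39h1 minus shSuv39h2 on the y axis; called genes are black, or red on chromosome 11 and blue on chromosome 19. Large differences among called genes lie mostly above 0, 68 against 6 past an absolute value of 1, and many small ones belong to chromosome 11 or 19.

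In most called genes the shSuv39h2 libraries were the ones that stood apart from shNC. Among the genes higher in shSuv39h1, the median log2 difference from shNC was 0.10 in shSuv39h1 and -0.45 in shSuv39h2, and shNC was nearer to shSuv39h1 in 480 of 572 (83.9%). Among the genes lower in shSuv39h1 the medians were 0.01 in shSuv39h1 and 0.52 in shSuv39h2, with shNC nearer to shSuv39h1 in 238 of 264 (90.2%). Over all genes it was nearer to shSuv39h1 in 63.2%. Against shNC itself, limma called 18 genes in shSuv39h1 (0.143%), 11 higher (0.0875%) and 7 lower (0.0557%), and 1214 in shSuv39h2 (9.66%), 687 higher (5.47%) and 527 lower (4.19%). The 2 comparisons share the shNC libraries. A gene called higher in shSuv39h1 was thus in most cases near its shNC level there and lower in shSuv39h2. These counts include chromosomes 11 and 19, whose shifts in shSuv39h2 are described below. Chromosome 11 held 226 of the 572 higher calls and chromosome 19 held 109 of the 264 lower calls. The shares nearer to shSuv39h1 were not taken without them.

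Called genes were unevenly spread over the chromosomes. On chromosome 11, 226 of 1095 genes were higher in shSuv39h1 (20.6%) and 2 lower, the median log2 difference was 0.28, and 90.5% of its genes lay above 0. On chromosome 19, 109 of 434 genes were lower in shSuv39h1 (25.1%) and 3 higher, the median was -0.31, and 11.5% lay above 0. The medians of the other 18 chromosomes apart from Y ran from -0.04 to 0.01. Along chromosome 11 the medians of 5 equal parts ran from 0.26 to 0.30, and along chromosome 19 from -0.37 to -0.25, so the shift was not confined to a stretch of either.

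The shift came with the shSuv39h2 libraries. The chromosome 11 median relative to the shNC mean was 0.05 and 0.09 in the shSuv39h1 libraries and -0.22 and -0.22 in the shSuv39h2 libraries. That of chromosome 19 was 0.05 and 0.05 in the shSuv39h1 libraries, against 0.36 and 0.35 in the shSuv39h2 libraries. In genes of at least 10 FPKM, the median ratio of mean levels on chromosome 11 was 1.23 for shSuv39h1 over shSuv39h2, 1.05 for shSuv39h1 over shNC and 0.850 for shSuv39h2 over shNC. On chromosome 19 these ratios were 0.768, 1.04 and 1.35. Chromosome 11 held 39.5% of the higher calls with 8.71% of the genes, and chromosome 19 held 41.3% of the lower calls with 3.45% of the genes. Chromosome number was not measured in these files, and its part in the result was not tested. Outside chromosomes 11, 19 and Y, 340 of 11036 genes were higher (3.08%) and 153 lower (1.39%). With each chromosome's median removed from each library before the fit, 416 genes were called, 312 higher and 104 lower.

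**Figure D3:**
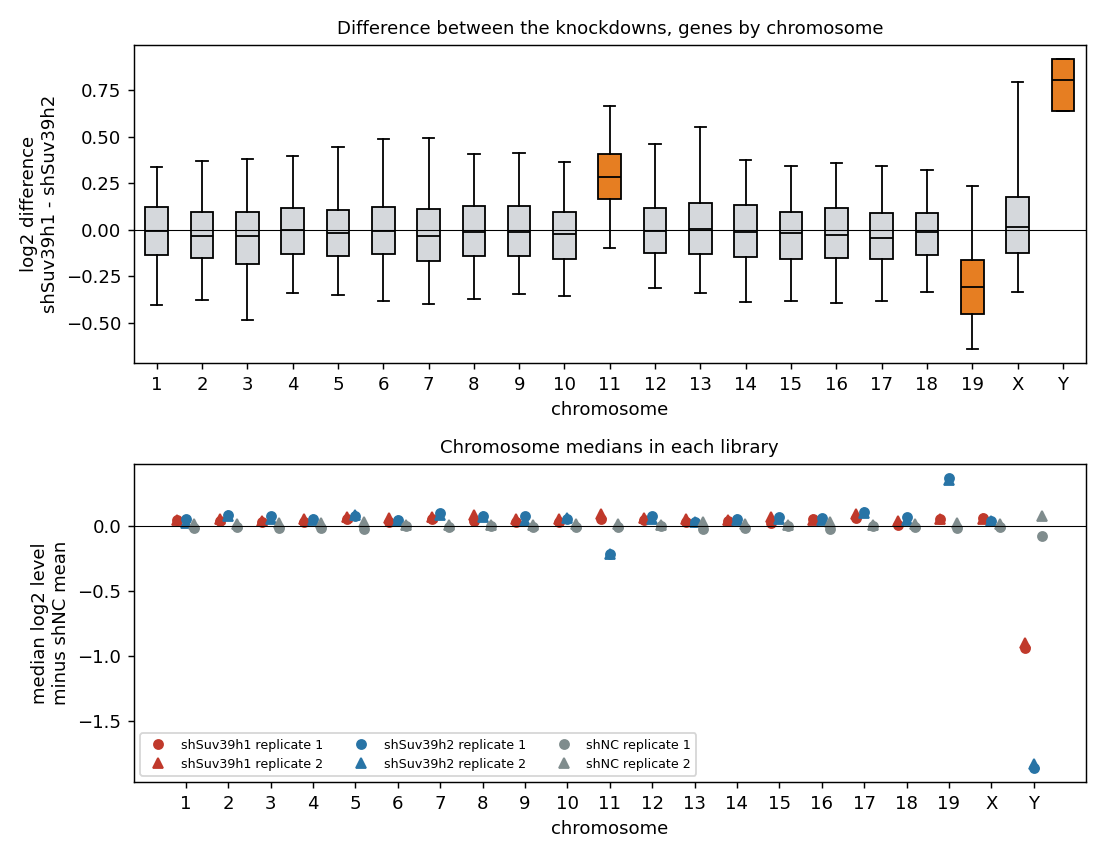
Top, log2 difference shSuv39h1 minus shSuv39h2 of the genes of each chromosome (box, quartiles; line, median; whiskers, 5th and 95th percentiles; chromosomes 11, 19 and Y in orange). Bottom, median log2 level of each chromosome minus the shNC mean in each library; both shSuv39h2 libraries lie at -0.22 on chromosome 11 and at 0.36 and 0.35 on chromosome 19, while the shSuv39h1 libraries stay between 0.05 and 0.09 there.

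The Y chromosome was lower than in shNC in both knockdowns, and lower still in shSuv39h2. Its 4 tested genes had a median log2 difference of 0.81 between the hairpins, and 3 of 4 were called higher in shSuv39h1. Eif2s3y, which encodes a translation initiation factor subunit needed for spermatogonial proliferation, had 13.8 and 13.8 FPKM in shSuv39h1, 6.46 and 6.45 FPKM in shSuv39h2, and 22.9 and 24.7 FPKM in shNC. The 3 groups formed 3 steps that did not overlap. The log2 difference was 0.99 between the hairpins (limma adjusted p = 0.00288). The RNA helicase gene Ddx3y, with 3.67 and 3.67 FPKM in shSuv39h1, 1.46 and 1.57 FPKM in shSuv39h2, and 8.0 and 9.69 FPKM in shNC, showed the same order and a log2 difference of 0.89 (limma adjusted p = 0.00233). Uba1y differed by 0.72 (limma adjusted p = 0.00516), and the demethylase gene Uty by 0.40 without passing the test (limma adjusted p = 0.0592). Uba1y and Uty passed the filter through shSuv39h1.

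X-linked genes with testis expression led the genes that were higher in shSuv39h1. Of the 14 leading genes, 8 lay on chromosome X, where 37 of 430 genes were higher (8.60%) and 5 lower, around a median of 0.01. Pnma5, of a family derived from retrotransposon gag genes, had 20.3 and 17.4 FPKM in shSuv39h1, 2.84 and 3.29 FPKM in shSuv39h2, and 16.4 and 17.2 FPKM in shNC. Both shSuv39h2 libraries lay far below the other 4, which were close together. The log2 difference was 2.29 (SE 0.0975, limma adjusted p = 8.03e-06), a ratio of mean FPKM of 6.15. Fmr1nb, a cancer/testis antigen gene next to Fmr1, had 55.9 and 56.2 FPKM in shSuv39h1, 11.8 and 14 FPKM in shSuv39h2, and 56.9 and 61.1 FPKM in shNC. Its shSuv39h1 libraries were level with shNC, and its log2 difference was 2.04 (SE 0.106, limma adjusted p = 2.80e-05). Nxf3, of the nuclear RNA export factor family, had 3.96 and 4.28 FPKM in shSuv39h1, 0.634 and 0.534 FPKM in shSuv39h2, and 4.9 and 4.36 FPKM in shNC, a log2 difference of 1.69 (limma adjusted p = 0.000428). It passed the filter only through shSuv39h1 and so had to differ.

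The Xlr genes, a cluster related to the meiotic protein gene Sycp3, moved the same way. Xlr3a had 10.6 and 14 FPKM in shSuv39h1, 2.13 and 2.42 FPKM in shSuv39h2, and 10.4 and 9.7 FPKM in shNC, and its log2 difference was 2.01 (limma adjusted p = 0.000428). Xlr3b had 6.29 and 5.32 FPKM in shSuv39h1, 0.708 and 0.854 FPKM in shSuv39h2, and 7.22 and 8.17 FPKM in shNC, a log2 difference of 1.93 (limma adjusted p = 0.000428). In Xlr4a, with 3.77 and 2.83 FPKM in shSuv39h1, 0.324 and 0.338 FPKM in shSuv39h2, and 3.01 and 2.0 FPKM in shNC, the log2 difference was 1.68 (limma adjusted p = 0.00223). In all of them the shSuv39h2 libraries were the low ones and did not overlap with any other library. Xlr3b and Xlr4a passed the filter only through shSuv39h1, so they had to differ. The Xlr copies are near-identical, so the split of reads between them is uncertain.

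The list of Rhox, Xlr, Mage and Pnma genes on chromosome X had 46 members in the files, of which 13 passed the filter, 5 of them only through shSuv39h1. Of the 13, 11 were called higher and none lower, beside 4.55% higher over all genes. All 5 that passed only through shSuv39h1 are among the 11, and these had to differ, so the count is a description. The median log2 difference was 1.07 for the 13 tested, beside -0.0052 over all genes. The number called was 8 without shSuv39h1 replicate 1, 6 without shSuv39h1 replicate 2, 6 without shSuv39h2 replicate 1 and 11 without shSuv39h2 replicate 2. The medians of the list against shNC were 0.13 in shSuv39h1 and -1.36 in shSuv39h2. Rhox10, a homeobox gene of spermatogonia, had 8.47 and 7.67 FPKM in shSuv39h1, 1.33 and 2.55 FPKM in shSuv39h2, and 3.48 and 3.86 FPKM in shNC, so that shSuv39h1 lay above shNC and shSuv39h2 below it. Its log2 difference was 1.66 (limma adjusted p = 0.00344). Rhox5, the founding homeobox gene of the cluster, was the least changed of the called members, at 47.7 ± 4.19 FPKM in shSuv39h1, 32.1 ± 4.59 FPKM in shSuv39h2 and 83.3 ± 1.06 FPKM in shNC (mean ± SD, n = 2), a log2 difference of 0.56 with a limma adjusted p of 0.0161. Unlike Rhox10, it was below shNC in both knockdowns, as were Rhox6 and Rhox1.

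**Figure D4:**
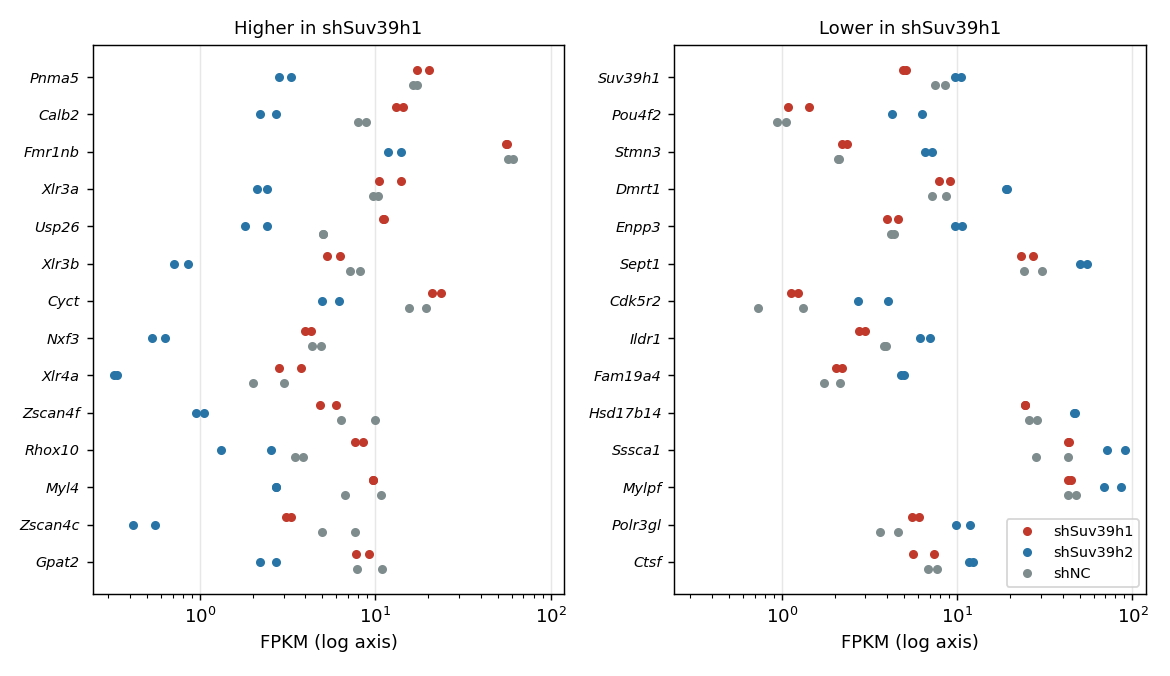
FPKM on a log axis in shSuv39h1, shSuv39h2 and shNC libraries (points, 2 per group) of the 14 called genes with the largest positive differences (left) and the 14 with the most negative (right). On the left the shSuv39h2 libraries lie below the others, as in Pnma5 at 2.84 and 3.29 FPKM; on the right they lie above, as in Stmn3 at 6.59 and 7.23 FPKM.

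Genes of the 2-cell-like state, a rare and transient state of embryonic stem cells that resembles the 2-cell embryo, were also higher in shSuv39h1. Zscan4f, a zinc finger gene that marks this state, had 5.95 and 4.83 FPKM in shSuv39h1, 0.946 and 1.05 FPKM in shSuv39h2, and 6.42 and 10 FPKM in shNC. The shSuv39h2 libraries were lowest, and both shSuv39h1 libraries lay between them and shNC. The log2 difference was 1.67 (SE 0.189, limma adjusted p = 0.00233). Zscan4c had 3.3 and 3.11 FPKM in shSuv39h1, 0.415 and 0.552 FPKM in shSuv39h2, and 4.96 and 7.69 FPKM in shNC, a log2 difference of 1.51 (limma adjusted p = 0.00223). The groups formed 3 steps there, with shSuv39h1 between shSuv39h2 and shNC. The predicted gene Gm8300 had 4.63 and 3.86 FPKM in shSuv39h1, 0.751 and 0.745 FPKM in shSuv39h2, and 5.79 and 7.41 FPKM in shNC, and its log2 difference was 1.58 (limma adjusted p = 0.00233). Zscan4c and Gm8300 passed the filter only through shSuv39h1, so they had to differ. Zscan4f was below 1 FPKM in shSuv39h2 replicate 1 and barely above it in replicate 2, so the same care applies to it.

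The 2-cell list had 41 members in the files and 16 that passed the filter. Of these, 12 were called higher and none lower, beside 4.55% and 2.1% over all genes. The median of the tested members was 1.00, beside -0.0052 over all genes. However, 11 of the 16 passed only through shSuv39h1, 10 of the called ones among them, so most had to differ. Zscan4f and Gm5662, also called, were below 1 FPKM in shSuv39h2 replicate 1, at 0.946 and 0.764 FPKM. Thus no called member of this list reached 1 FPKM in all 4 libraries. The number called was 3 without shSuv39h1 replicate 1, 6 without shSuv39h1 replicate 2, 5 without shSuv39h2 replicate 1 and 7 without shSuv39h2 replicate 2. The medians against shNC were -0.52 in shSuv39h1 and -1.66 in shSuv39h2. Zscan4, Usp17l and the Gm copies are families of near-identical genes, so values of single copies are uncertain.

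Germline genes known to be silenced by promoter DNA methylation held more called genes than any other list. All 52 listed genes were in the files and 39 passed the filter, 2 of them only through shSuv39h1. Of the 39, 17 were higher in shSuv39h1 and 1 lower, beside 4.55% and 2.1% over all genes, with a median of 0.45, and 2 of the 17 lay on chromosome 11, 19 or Y. With chromosome medians removed 15 were higher and none lower. The number called higher was 5 without shSuv39h1 replicate 1, 6 without shSuv39h1 replicate 2, 8 without shSuv39h2 replicate 1 and 11 without shSuv39h2 replicate 2.

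Cyct, the testis-specific cytochrome c gene, had 21.1 and 23.6 FPKM in shSuv39h1, 4.98 and 6.22 FPKM in shSuv39h2, and 15.5 and 19.6 FPKM in shNC. The shSuv39h2 libraries lay below all others. They differed by 1.83 on the log2 scale (SE 0.198, limma adjusted p = 0.00223), a ratio of mean FPKM of 4.0. Gpat2, an acyltransferase gene of the testis, had 7.75 and 9.19 FPKM in shSuv39h1, 2.19 and 2.72 FPKM in shSuv39h2, and 10.9 and 7.89 FPKM in shNC, a log2 difference of 1.45 (limma adjusted p = 0.00223). The testis tubulin gene Tuba3a had 38.4 and 40.8 FPKM in shSuv39h1, 15 and 17.3 FPKM in shSuv39h2, and 37.9 and 40.5 FPKM in shNC, and its log2 difference was 1.25 (limma adjusted p = 0.00267). Tuba3a and Tuba3b are near-identical, so their separate values are uncertain. In Gpat2 and Tuba3a the shSuv39h1 libraries overlapped with shNC, and in Cyct they lay above it.

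Some called genes of the germline list have a known part in the piRNA pathway, which silences transposons in germ cells. They were picked after their values were seen and were not counted as a list of their own. Tdrkh, a Tudor domain partner of PIWI proteins, had 5.04 and 5.35 FPKM in shSuv39h1, 2.08 and 2.24 FPKM in shSuv39h2, and 3.61 and 3.04 FPKM in shNC, a log2 difference of 0.97 (limma adjusted p = 0.00209). The groups did not overlap, and shNC lay between them. Piwil2 averaged 8.1 ± 0.393 FPKM in shSuv39h1, 4.7 ± 0.147 FPKM in shSuv39h2 and 6.27 ± 1.03 FPKM in shNC (mean ± SD, n = 2), a log2 difference of 0.68 with a limma adjusted p of 0.0151. Piwil4, which passed the filter only through shSuv39h1, and Gtsf1 differed by 0.87 and 0.97. The one germline list member that was lower was Mov10, an RNA helicase gene that is also broadly expressed, at -0.50 (limma adjusted p = 0.0467). Meiotic members included Syce1 of the synaptonemal complex, at 0.85, the meiotic cohesin gene Smc1b, at 1.23, and the RNA-binding gene Dazl, at 0.65, all called higher. Fkbp6, also called higher, was far below shNC in both knockdowns, with 2.59 ± 0.29 FPKM in shSuv39h1, 1.22 ± 0.219 FPKM in shSuv39h2 and 9.09 ± 0.555 FPKM in shNC.

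The promoters of these sets differed in base composition. Among 35 of the 39 germline genes with a listed promoter, the median was 14 CpG in 250 bases. Among 11 of the 13 X-linked genes it was 5, and 63.6% had at most 5 CpG, against 11.8% of all listed promoters of tested genes. The hexamer CACGTG, which reads the same on both strands and is part of E-box sites, was present in 12 of the 35 germline promoters (34.3%), against 8.72% of all. TCCCGC or its complement GCGGGA, a core of E2F sites, was present in 14 of the 35 (40%), against 31.3% of all, and in 0 of the 11 X-linked promoters. CACGTG and TCCCGC, or GCGGGA, can share at most 1 base. Neither hexamer was found in the printed Fmr1nb, Xlr3a, Zscan4f or Stmn3 windows, while those of Cyct and Tuba3a hold the second. A promoter was listed for 79.5% of all tested genes, and for 5 of the 16 tested 2-cell genes, too few for a statement on that list.

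The genes that were lower in shSuv39h1 were fewer and smaller in difference, and here too shSuv39h1 lay close to shNC. Pou4f2, a transcription factor gene of retinal ganglion cells, had 1.43 and 1.09 FPKM in shSuv39h1, 4.25 and 6.27 FPKM in shSuv39h2, and 0.942 and 1.06 FPKM in shNC. Both shSuv39h2 libraries lay above the other 4. This gave a log2 difference of -1.46 (SE 0.168, limma adjusted p = 0.00247). Stmn3, a stathmin of neurons that acts on microtubules, had 2.2 and 2.36 FPKM in shSuv39h1, 6.59 and 7.23 FPKM in shSuv39h2, and 2.1 and 2.12 FPKM in shNC, a log2 difference of -1.27 (limma adjusted p = 0.00144). Cdk5r2, an activator of the neuronal kinase Cdk5, had 1.24 and 1.13 FPKM in shSuv39h1, 4.03 and 2.73 FPKM in shSuv39h2, and 1.32 and 0.731 FPKM in shNC, a log2 difference of -0.99 (limma adjusted p = 0.0161). Its call was lost in the fit of the 6 hairpin libraries alone, and without single libraries its difference ran from -1.21 to -0.77. These 3 are genes of neurons, but of the 21 tested members of the neural list Stmn3 alone was called lower and Tubb3 alone was called higher, with a median of -0.03. Gap43, a growth cone gene, and En2, a hindbrain homeobox gene, did not pass, at 0.21 and 0.44.

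Genes outside neurons were among them as well. Enpp3, an ectonucleotide pyrophosphatase gene, had 3.98 and 4.61 FPKM in shSuv39h1, 9.78 and 10.7 FPKM in shSuv39h2, and 4.39 and 4.17 FPKM in shNC, a log2 difference of -1.09 (limma adjusted p = 0.00223). Hsd17b14, a hydroxysteroid dehydrogenase gene, had 24.4 and 24.4 FPKM in shSuv39h1, 46.8 and 46.4 FPKM in shSuv39h2, and 25.7 and 28.7 FPKM in shNC, with a difference of -0.91 (limma adjusted p = 0.00267). Ildr1, which encodes a protein of tricellular junctions, differed by -0.96 (limma adjusted p = 0.00186) and Fam19a4, a secreted protein gene, by -0.92. In all 4 the shSuv39h2 libraries were the high ones. Sept1 and Mylpf differed by -1.05 and -0.81, but they overlap on chromosome 7, so their reads may not be separable. Dmrt1, a testis transcription factor gene, Sssca1 and the lysosomal protease gene Ctsf lie on chromosome 19, and their differences of -1.09, -0.88 and -0.79 were -0.78, -0.57 and -0.49, none called, once chromosome medians were removed.

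The leading genes differed in how far they rested on single libraries. Of the 14 leading higher genes 13 were called in all 4 fits that left out a library, and Myl4, an embryonic and atrial myosin light chain gene on chromosome 11, in none. Of the 14 leading lower genes, Suv39h1 included, 6 were called in all 4 fits, 4 in some and 4 in none. Those called in none were Dmrt1, Fam19a4, Sssca1 and Ctsf.

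Some genes stood on opposite sides of shNC in the knockdowns. With an unadjusted limma p below 0.05 in each comparison with shNC, 60 of the 836 called genes did so, 53 with shSuv39h1 above and 7 with it below. Only called genes were searched, 572 higher and 264 lower, and the share over all tested genes was not taken. A call for a difference between the hairpins favours opposite sides of shNC, so the count is a description. Calb2, which encodes the calcium-binding protein calretinin, had 13.1 and 14.5 FPKM in shSuv39h1, 2.21 and 2.7 FPKM in shSuv39h2, and 8.82 and 8.02 FPKM in shNC. The 3 groups did not overlap. The log2 difference was 2.10 between the hairpins (SE 0.207, limma adjusted p = 0.00178), and it was 0.65 for shSuv39h1 and -1.45 for shSuv39h2 against shNC, with limma adjusted p of 0.32 and 0.00343. Usp26, an X-linked deubiquitinase gene of the testis, had 11.1 and 11.2 FPKM in shSuv39h1, 1.8 and 2.42 FPKM in shSuv39h2, and 5.01 and 5.01 FPKM in shNC. It was 1.01 above shNC in shSuv39h1 and stood at -0.96 in shSuv39h2, with limma adjusted p of 0.0591 and 0.00743, so the shSuv39h1 side did not pass. Pnma3, Gm6880 and Serpinb6c showed the same order at low levels, but they were below 1 FPKM in both shSuv39h2 libraries and passed the filter only through shSuv39h1.

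Lama1 was 1 of the 18 genes called in shSuv39h1 against shNC. This basement membrane laminin gene had 18.4 and 18.4 FPKM in shSuv39h1, 8.97 and 10.9 FPKM in shSuv39h2, and 9.51 and 8.91 FPKM in shNC. The shSuv39h1 libraries lay above all others, by 0.83 against shSuv39h2 (limma adjusted p = 0.00409) and 0.92 against shNC (limma adjusted p = 0.020). Tceb2, which encodes elongin B, was lower in shSuv39h1, with 314 and 312 FPKM in shSuv39h1, 464 and 480.0 FPKM in shSuv39h2, and 441 and 474 FPKM in shNC, by -0.59 against shSuv39h2 (limma adjusted p = 0.00409) and -0.55 against shNC (limma adjusted p = 0.0465).

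Among abundant transcripts, the metallothionein genes Mt1 and Mt2, whose products bind zinc and copper, were higher in shSuv39h1. Mt2 had 1707 and 1654 FPKM in shSuv39h1, 907 and 916 FPKM in shSuv39h2, and 1315 and 1135 FPKM in shNC, and Mt1 had 1460.1 and 1422 FPKM in shSuv39h1, 914 and 849.7 FPKM in shSuv39h2, and 1269 and 919.7 FPKM in shNC. The log2 differences were 0.88 for Mt2 and 0.71 for Mt1, with limma adjusted p of 0.0162 and 0.0365, and shNC lay between both groups. Neither was called in any fit that left out a library. The other abundant higher genes, Ppia, which encodes cyclophilin A, and the ribosomal protein genes Rpl23a and Rpl27, all lie on chromosome 11. Their differences of 0.40, 0.49 and 0.50 became 0.11, 0.20 and 0.21 with chromosome medians removed, none called, and they have many processed copies in the genome. Fau, Pgam1 and Ppp1ca, abundant genes that were lower, lie on chromosome 19, and their differences of -0.38, -0.45 and -0.55 became -0.07, -0.14 and -0.24, also not called.

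The list of enzymes and readers of H3K9 methylation had 37 members in the files and 34 tested, with a median of -0.06. Of the 34, 2 were higher and 2 lower, the targets included, beside 4.55% and 2.1% over all genes. Apart from the targets the called genes were Atf7ip2 and Ehmt2. Atf7ip2, a relative of the SETDB1 partner gene Atf7ip, had 4.43 and 4.35 FPKM in shSuv39h1, 2.9 and 2.6 FPKM in shSuv39h2, and 4.11 and 4.09 FPKM in shNC, a log2 difference of 0.52 (limma adjusted p = 0.0156). Ehmt2, which encodes the euchromatic H3K9 methyltransferase G9a, had 54.2 and 53.2 FPKM in shSuv39h1, 71.6 and 69.5 FPKM in shSuv39h2, and 60.2 and 53.1 FPKM in shNC, a difference of -0.39 (limma adjusted p = 0.024). In both genes the 2 knockdowns did not overlap, but no fit that left out a library called either. In the H3K36 list, with 21 tested genes and a median of -0.15, 1 gene was higher and 1 lower, beside the same shares over all genes. These were Setd3, known as an actin histidine methyltransferase, at 0.62, and the H3K36 demethylase gene Kdm2a on chromosome 19, at -0.57. With chromosome medians removed Kdm2a stood at -0.27 and was not called (limma adjusted p = 0.097).

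Imprinted genes, expressed from 1 parental copy, gave 6 higher calls and no lower one among 34 tested of 41 in the files, beside 4.55% called higher over all genes, with a median of 0.20. H19, a maternally expressed noncoding RNA, had 38.7 and 36.4 FPKM in shSuv39h1, 23.9 and 18.3 FPKM in shSuv39h2, and 60.6 and 53.3 FPKM in shNC. It was below shNC in both knockdowns, and lowest in shSuv39h2, with a log2 difference of 0.82 (limma adjusted p = 0.024). Plagl1, a zinc finger gene, had 5.03 and 4.96 FPKM in shSuv39h1, 2.56 and 2.99 FPKM in shSuv39h2, and 4.53 and 4.9 FPKM in shNC, a difference of 0.67 (limma adjusted p = 0.0071). Phlda2, a placental growth regulator, Impact, Ddc and the noncoding Rian differed by 0.54, 0.46, 0.49 and 0.38. Ddc lies on chromosome 11 and stood at 0.20, not called, with chromosome medians removed (limma adjusted p = 0.385). The list then held 4 higher calls, as it did with a feeder covariate. The number of higher calls was 0 without shSuv39h1 replicate 1, 0 without shSuv39h1 replicate 2, 0 without shSuv39h2 replicate 1 and 2 without shSuv39h2 replicate 2.

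Replication-dependent histone genes had a median of 0.39 over 43 tested of 65 in the files, with 3 called higher and none lower, beside 4.55% and 2.1% over all genes. Hist1h4d had 12.2 and 14 FPKM in shSuv39h1, 5.75 and 4.93 FPKM in shSuv39h2, and 13.3 and 9.42 FPKM in shNC, a log2 difference of 1.15 (limma adjusted p = 0.0337). Hist1h3c and Hist1h2bb differed by 0.72 and 0.96. With chromosome medians removed the differences were of the same size, at 1.14, 0.70 and 0.94, with limma adjusted p of 0.0573, 0.05001 and 0.0595, each just short of the threshold. Without single libraries the list median ran from 0.28 to 0.47. The difference then ran from 1.06 to 1.25 in Hist1h4d, from 0.49 to 0.94 in Hist1h3c and from 0.63 to 1.29 in Hist1h2bb. Histone mRNA mostly lacks a poly(A) tail and was captured here as mRNA, and the copies are near-identical, so these values are uncertain.

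All 37 listed naive and general pluripotency genes were tested. Of these, 1 was higher and 2 were lower, beside 4.55% and 2.1% over all genes, and the median was -0.05. The adhesion molecule gene Pecam1, on chromosome 11, had 45.4 and 49.7 FPKM in shSuv39h1, 23.6 and 24.3 FPKM in shSuv39h2, and 43.3 and 36.7 FPKM in shNC, a log2 difference of 0.96 (limma adjusted p = 0.00409). Nr0b1, which encodes the nuclear receptor DAX1, had 37.5 and 31.9 FPKM in shSuv39h1, 51.7 and 54.2 FPKM in shSuv39h2, and 30.6 and 38.3 FPKM in shNC, a difference of -0.60 (limma adjusted p = 0.039). The 5-methylcytosine dioxygenase gene Tet2 differed by -0.41 (limma adjusted p = 0.0345). Neither Nr0b1 nor Tet2 was called in a fit that left out a library. With chromosome medians removed they stood at -0.63 and -0.38, close to the values above, with limma adjusted p of 0.0516 and 0.073. With a feeder covariate the list held 2 higher and 5 lower calls. Pou5f1, the core pluripotency factor gene, had 777 and 823 FPKM in shSuv39h1, 939 and 1007 FPKM in shSuv39h2, and 693 and 748 FPKM in shNC and did not pass, at -0.28 (limma adjusted p = 0.086).

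The endoderm, Wnt and FGF lists held between 2 and 4 calls each, beside 4.55% called higher and 2.1% called lower over all genes. Of 19 tested primitive and visceral endoderm genes 3 were higher and 1 lower, with a median of -0.05. The higher ones were Lama1, the endocytic receptor gene Lrp2, at 0.39, and the transcription cofactor gene Cited1, at 0.45, while the endoderm transcription factor gene Gata4 was lower, at -0.59. Of 27 Wnt genes, Nkd2, an inhibitor of the pathway, was higher, at 0.55, and the coreceptor gene Lrp5 on chromosome 19 was lower, at -0.51, with a median of -0.04. With chromosome medians removed they stood at 0.54 and -0.20 and were not called (limma adjusted p = 0.0595 and 0.395). Of 24 FGF and ERK genes 2 were lower, the ETS factor gene Etv1, at -0.79, and the receptor gene Fgfr1, at -0.37, with a median of -0.14. Etv1 had 1.98 and 2.07 FPKM in shSuv39h1, 4.25 and 4.21 FPKM in shSuv39h2, and 2.24 and 2.79 FPKM in shNC, with a limma adjusted p of 0.0111. Apart from Lama1, none of these was called in any fit that left out a library.

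Lists of immediate early, p53, unfolded protein response and glycolysis genes held 2 calls each. All were lower in shSuv39h1 in the fit as described, in which 6.65% of all genes were called and 2.1% were lower. With a feeder covariate the ATF4 list also held higher calls. Of 27 tested immediate early genes, with a median of -0.29, 2 were lower. Fos, a subunit of the AP-1 factor, had 25.5 and 35.2 FPKM in shSuv39h1, 43.6 and 52.5 FPKM in shSuv39h2, and 41.2 and 46.2 FPKM in shNC, a log2 difference of -0.66 (limma adjusted p = 0.0355), and Gadd45g differed by -0.57. Of 27 p53 targets, with a median of -0.11, Gadd45a and Ei24 were lower, at -0.55 and -0.42. Of 37 ATF4 and unfolded protein response genes, with a median of -0.09, the transsulfuration enzyme gene Cth and the amino acid transporter subunit gene Slc3a2 were lower, at -0.72 and -0.29, and Slc3a2 lies on chromosome 19 and stood at 0.02 with chromosome medians removed. Of 33 glycolysis and hypoxia genes, with a median of -0.12, the enolase gene Eno2 and Pgam1, which lies on chromosome 19, were lower, at -0.57 and -0.45. With chromosome medians removed this list held no call, Eno2 stood at -0.58 (limma adjusted p = 0.0592) and Pgam1 at -0.14 (limma adjusted p = 0.455). Of these genes Fos and Eno2 were called in 1 of the 4 fits that left out a library, and the others in none. The feeder list had its lowest sum in shSuv39h1 replicate 2, at 1688 FPKM. With the feeder marker level as a covariate the ATF4 list had 3 higher and 3 lower calls, the glycolysis list 5 lower and the immediate early and p53 lists 1 lower each. Fos was then at -0.79 (limma adjusted p = 0.0126), while Gadd45g, at -0.44, and Ei24, at -0.38, were no longer called (limma adjusted p = 0.0678 for both).

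Of the 32 lists, 10 held 1 called gene and 5 held none. Those with 1, named after their values were seen, were Tet2 among DNA methylation genes, Suz12 on chromosome 11 in the Polycomb list, Tcf15 in the primed list, Gata4 in the primitive streak list, Crabp1 in the retinoic acid list, Insig1 in the cholesterol list, Pold4, Gtf2h1 and Mus81 in the 3 DNA repair lists, and Cdk4 in the cell cycle list. Pold4 and Mus81 lie on chromosome 19, and with chromosome medians removed their lists held no call, nor did the Polycomb, DNA methylation and cell cycle lists. Lists with no call were trophectoderm, with a median of 0.32, Hox genes, at -0.20, Nodal and BMP targets, at -0.07, the interferon response, at -0.06, and the feeder list, at -0.51. A list with no call may still hold differences too small for this test.

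**Figure D5:**
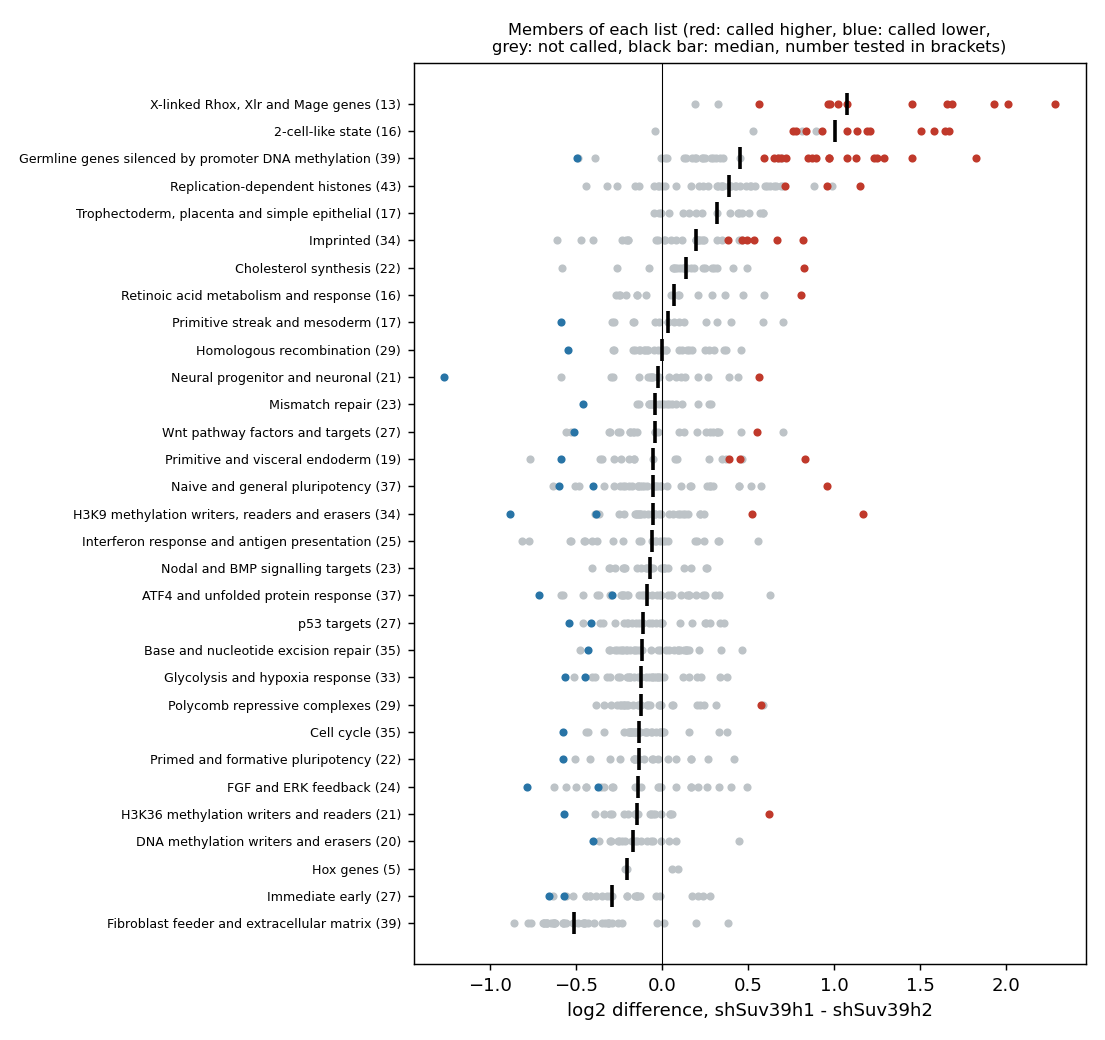
Log2 difference shSuv39h1 minus shSuv39h2 (x axis) of each tested member of the lists with at least 5 tested genes (rows; number tested in brackets), red where called higher, blue where called lower and grey where not called, with a black bar at the median. Medians run from -0.51 in the feeder list to 1.07 in the X-linked list, and red points gather in the X-linked, 2-cell and germline rows. Of the red points, 5 of 11 in the X-linked row and 10 of 12 in the 2-cell row passed the filter only through shSuv39h1 and had to differ.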

How the data were processed

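mRNA was measured in 12 libraries of J1 mouse embryonic stem cells, 2 in each of 6 groups. Each library has 1 deposited file, in which the authors give an FPKM value for every gene symbol. The unit was inferred from the values and from Cuffdiff 2.2.1, which the submitters' processing notes name with TopHat2 2.0.13 and mm10. Their settings, the strand handling and the annotation do not appear in the sources used here. Per the labels' protocols, libraries came from a NEBNext Ultra or a TruSeq v2 kit, with no word on which. Values near 0 rest on few fragments, and near-identical or overlapping genes may share reads.

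The filter kept genes that reached 1 FPKM in 2 or more of the 4 compared libraries. limma 3.58.1 in R 4.3.3 was fitted to log2(FPKM + 1) with a mean for each of 6 groups over all 12 libraries (trend in the prior, 6 residual and 3.78 prior degrees of freedom). The contrast was shSuv39h1 minus shSuv39h2, two-sided, with Benjamini-Hochberg adjustment over 12569 genes and a threshold of 0.05. A fold change on this scale understates the change of low genes. Against shNC the same fit and genes were used. The files hold no counts, so no count test was run. The steps were checked on simulated data.

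The genes, lists, rules and tests were chosen with earlier results of these data known, and the chromosome alternatives after the chromosome shifts were seen. Named were the targets, the 14 called genes with the largest difference in each direction (libraries not overlapping, at least 3 FPKM in the higher group, predicted and small RNA genes skipped), the 5 most abundant called genes in each direction, 6 on opposite sides of shNC, and up to 6 members with the smallest p from each list with at least 2 calls. Further called list members and the single calls of other lists were named after their values were seen. Alternatives were the pseudocount, filters, quantile and median-of-ratios scaling, array weights, a replicate block, fewer libraries, a feeder covariate, a fold threshold and leaving out each library. Chromosomes and promoters came from RefSeq on GRCm38.p6, which held a chromosome for 12518 of the genes.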

Additional observations from a re-analysis of the deposited data

How the results depend on the processing

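Of 836 calls in the fit as reported, the count stayed within 1.5 times under a pseudocount of 0.1 (817), no filter (821), a filter of 5 FPKM (613), a filter over all 12 libraries (860), quantile normalization (832), median-of-ratios scaling (841) and a feeder covariate (938). It was 2046 with array weights, 1304 with the 4 libraries alone, 1407 without H3.1K9M, 370 with the 6 hairpin libraries and 18 when the difference had to exceed 0.5. Leaving out 1 library gave 84 to 219, with fewer libraries in the fit. With genes of chromosomes 11, 19 and Y left out it was 357, and with chromosome medians removed 416. The replicate block over the 4 libraries gave 2069, while deviations of same-numbered libraries had a correlation of 0.187 across genes and the labels do not say what a number shares, so the numbers were not taken as pairs. Suv39h2 kept its call in every alternative that tested it (the 5 FPKM filter did not). Suv39h1, at -0.89, lost its call only against a threshold of 0.5 (limma adjusted p = 0.464). With chromosome medians removed, Dusp14, Slc3a2 and Slc16a3 changed sign, to -0.032, 0.018 and -0.13, because their chromosomes' shifts were taken out. Of 83 named called genes other than the targets, 29 to 42 stayed called without 1 library and 15 past the threshold of 0.5. The cause of the other changes was not tested. Depth limits genes near 1 FPKM, where a 2 kb transcript has about 44.6 to 54.3 fragments.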

Other observations

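Of the 57 genes called in every fit that left out a library, several belong to no list described here, and were named after their values were seen. Plac8, a gene of placenta and immune cells, had 49.6 and 49.4 FPKM in shSuv39h1, 15.6 and 20.6 FPKM in shSuv39h2, and 66.2 and 55.2 FPKM in shNC, a log2 difference of 1.42 (limma adjusted p = 0.00239). Cltb, which encodes clathrin light chain B, had 45.6 and 47.0 FPKM in shSuv39h1, 24.0 and 24.6 FPKM in shSuv39h2, and 33.6 and 32.4 FPKM in shNC, a log2 difference of 0.90 (limma adjusted p = 0.000428). The transferrin gene Trf differed by 0.90, the secreted Wnt modulator gene Sfrp2 by 0.82 and the glutathione transferase gene Gstm5 by 0.79, all higher in shSuv39h1. Cpn1, a carboxypeptidase subunit gene, was higher by 1.17 although it lies on chromosome 19.

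Some of the largest differences did not pass. The small nucleolar RNA gene Snora7a was listed at 0 in both shSuv39h1 and both shNC libraries, against 27.2 and 57.9 FPKM in shSuv39h2. Snora26 stood at 0.00703 and 0.0913 FPKM in shSuv39h1, 56.8 and 56.4 FPKM in shSuv39h2, and 265 and 0.110 FPKM in shNC, so the shNC libraries themselves disagreed. Such short RNAs are poorly captured in mRNA libraries.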
